A study of Mus musculus with 3 samples.

Results

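Tetraspanins are small membrane proteins that cross the membrane repeatedly and organise other proteins into patches, and several of them are the usual markers of extracellular vesicles. The 10 tetraspanin genes described here (Cd9, Cd37, Cd53, Cd63, Cd81, Cd82, Cd151, Tspan3, Tspan4 and Tspan14) were chosen by name from the 27179 genes of the deposited table, by a rule that uses no measured value but was written with earlier results of these data known. All 10 were found and all 10 had a mean level of at least 50, the filter used for comparisons. In this study bone marrow stromal cells labelled wild-type were cultured at 3% oxygen and given extracellular vesicles for 3 days. Ocn-EV and Prx1-EV vesicles came from C57BL/6N mice that carried the CAGS-Snorkel transgene together with Ocn-Cre or Prx1-Cre, and All-EV vesicles came from wild-type C57BL/6N mice as the control. Ocn-Cre is driven by osteocalcin, a gene of mature osteoblasts, and Prx1-Cre by a gene of limb mesenchyme, so each driver also marks the descendants of those cells. Each preparation was a pool of bone marrow plasma from 5 mice (2 males and 3 females, 6 months old), and vesicles were taken up on beads with an HA antibody. The labels do not say how vesicles of mice without the transgene were held on these beads.

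One messenger RNA library was sequenced for each preparation, so every group has n = 1. Differences between groups could not be set against a spread between replicates, and p-values are not given. "Higher" and "lower" compare single libraries. Unnamed values in a series of 3 are in the order All-EV, Ocn-EV, Prx1-EV, and paired ratios are those of Ocn-EV and then Prx1-EV to All-EV. Levels are the deposited normalised counts. Ranges in brackets are 95% exact intervals from the recovered whole reads, and they cover counting error only. Log2 ratios were computed after adding 1 to each value, which hardly moves genes at these levels. The libraries held between 14233978 and 17269204 reads assigned to genes. Stromal marker genes were read in all 3 libraries, but so were macrophage genes: a list of 10 macrophage markers took 1.35% of reads for All-EV, 0.948% for Ocn-EV and 0.820% for Prx1-EV, and a list of 12 stromal markers took 0.0857%, 0.536% and 0.350%. The cultures labelled stromal therefore held macrophage RNA, and a tetraspanin level is a sum over both kinds of cell. The drop in the macrophage share rests on Lyz2, the lysozyme gene. Its reads numbered 123980, 49971 and 46480, where the whole macrophage list had 210704, 135004 and 141594. That share alone therefore does not show less macrophage RNA with Ocn-EV or Prx1-EV.

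CD9, CD63 and CD81 are the markers most often used to detect vesicles. CD63 cycles between the cell surface, late endosomes and lysosomes and is carried out on vesicles formed in endosomes, while CD9 and CD81 sit mainly at the plasma membrane, where they bind immunoglobulin-family partners and integrins. CD82 and CD151 act in cell adhesion, CD151 as the close partner of laminin-binding integrins. TSPAN14 is one of the TspanC8 tetraspanins, which escort the sheddase ADAM10 to the cell surface. CD37 and CD53 are made by blood cells, CD37 above all by B cells and CD53 by nearly all leukocytes, and stromal cells are not known for either. The other 8 are called broadly expressed here.

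Per kilobase of the longest annotated transcript, the scale on which genes can be compared, Cd53, Cd9 and Cd63 stood apart from the rest in every library. Cd53 came first in All-EV, at 12428 per kilobase, ahead of Cd9 at 7215 and Cd63 at 6353. In Ocn-EV the order was Cd9 (6485), Cd63 (6160) and Cd53 (5404). In Prx1-EV it was Cd9 (6641), Cd63 (6431) and Cd53 (6168), where the first 2 did not differ beyond counting error. Cd81 came next in each library, at 1394 (All-EV), 2052 (Ocn-EV) and 1990 (Prx1-EV). The other 6 lay between 453 (Tspan3 in Prx1-EV) and 951 (Tspan4 in Ocn-EV) per kilobase, with neighbours that often did not differ beyond counting error: Tspan4 and Cd82, then Cd151, Tspan14, Cd37 and Tspan3 in All-EV, Cd151 and Tspan14, and Tspan3 and Cd37 in Ocn-EV, and Tspan4, Cd151 and Tspan14 in Prx1-EV.

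The order at the top depends on the transcript taken. The longest Cd63 transcript, of 2894 bases, is a form that keeps an intron, and the longest transcript marked as principal has 1109 bases. With principal transcripts Cd63 was first in all 3 libraries, at 16577 per kilobase (All-EV), 16076 (Ocn-EV) and 16783 (Prx1-EV). Cd53, whose length does not change, then came after Cd63 in All-EV and after Cd63 and Cd9 in the other libraries, and Cd37 moved up to the place after Cd81 in each.

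**Figure D1:**
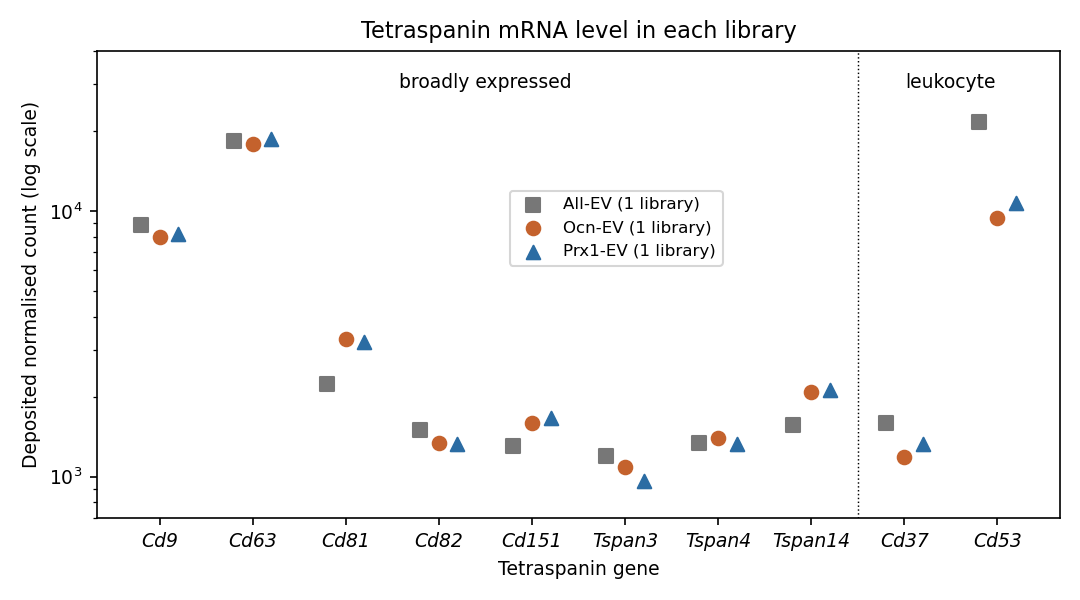
Deposited normalised count of each tetraspanin gene (log axis) in the All-EV, Ocn-EV and Prx1-EV libraries, 1 point per library with no error bar because each group is 1 library. Cd53 was at 21649 in All-EV against 9414 and 10744 in the others, while the 3 points of Cd63 lay between 17828 and 18612.

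Cd63 (gene 12512, chr10:128896231-128912822, GRCm38.p6) had nearly the same level in the 3 cultures. Its normalised count was 18384 for All-EV, 17828 for Ocn-EV and 18612 for Prx1-EV. The log2 ratio to All-EV was −0.04 (−0.08 to −0.01) with Ocn-EV and 0.02 (−0.01 to 0.05) with Prx1-EV. The second interval includes 0 and the first nearly does. Cd63 ranked 89th for All-EV, 67th for Ocn-EV and 63rd for Prx1-EV among all genes by reads. A pseudogene of Cd63 and one of Cd9 are annotated, and neither is among the genes of the deposited values. Some reads of Cd63 and Cd9 may have been shared with these copies, which was not tested.

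Cd9 (gene 12527, chr6:125460266-125494760) differed little, and its direction depended on the scaling. It stood at 8859.9 for All-EV, 7963.5 for Ocn-EV and 8155 for Prx1-EV. These were 1.11-fold (1.08 to 1.15) and 1.09-fold (1.05 to 1.12) below All-EV, beyond counting error but small. With libraries set to equal totals, which moves the median log2 ratio of all tested genes to 0.24 (Ocn-EV) and 0.22 (Prx1-EV), Cd9 was at 0.10 and 0.11 on the log2 scale instead of −0.15 and −0.12, so no direction is given for it. Cd63 under the same scaling was at 0.21 and 0.24, close to those medians.

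Cd81 (gene 12520, chr7:143052750-143067930) was the vesicle marker that stood out, higher in both. Its level was 2239.6 for All-EV, 3298 for Ocn-EV and 3198 for Prx1-EV. That is 1.47-fold (1.39 to 1.56) and 1.43-fold (1.35 to 1.51) above All-EV, or 0.56 and 0.51 on the log2 scale, just under the 1.5-fold used for counting. Of all tested genes, 85.5% had a lower ratio with Ocn-EV and 84.7% with Prx1-EV. Equal totals put Cd81 at 0.81 and 0.74, but that scaling raises the ratios of all tested genes to All-EV (median 0.24 and 0.22). A gene already higher could therefore only rise under it. The fit on transcript length and GC content gave 0.76 and 0.72 for Cd81, past 1.5-fold. Within a library, where scaling plays no part, there were 3.96 (3.77 to 4.16) Cd9 reads for each Cd81 read for All-EV, 2.41 (2.32 to 2.52) for Ocn-EV and 2.55 (2.45 to 2.65) for Prx1-EV. The Cd63 reads for each Cd81 read went from 8.21 (7.83 to 8.61) in All-EV to 5.41 (5.21 to 5.62) and 5.82 (5.62 to 6.03).

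Of the remaining broadly expressed genes, Tspan14 and Cd151 resembled Cd81. Tspan14 (gene 52588, chr14:40906427-40967073) stood at 1558 for All-EV, 2074 for Ocn-EV and 2118 for Prx1-EV, which is 1.33-fold (1.24 to 1.43) and 1.36-fold (1.27 to 1.45) higher. Cd151 (gene 12476, chr7:141467362-141471481) stood at 1303, 1592.5 and 1664.5, which is 1.22-fold (1.13 to 1.32) and 1.28-fold (1.19 to 1.38) higher. Both stayed above All-EV once the trend on length and GC content was taken out (0.47 and 0.51 for Tspan14, 0.36 and 0.44 for Cd151, log2). Under equal totals Tspan14 was at 0.67 and 0.67, and Cd151 at 0.55 and 0.58. That scaling raises the ratios of all tested genes, so neither gene could come out below All-EV there.

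Cd82 and Tspan4 differed little between the libraries, though Cd82 as deposited was lower beyond counting error in both comparisons. Tspan3 was lower with Prx1-EV beyond counting error, by about as much as Cd151 was higher. Cd82 (gene 12521, chr2:93419102-93462950) stood at 1501 for All-EV, 1342 for Ocn-EV and 1329.5 for Prx1-EV. Its log2 ratios to All-EV were −0.16 (−0.27 to −0.05) and −0.17 (−0.28 to −0.07). Tspan3 (gene 56434, chr9:56135884-56161070) stood at 1196, 1089 and 964 (−0.13, −0.26 to −0.01, and −0.31, −0.43 to −0.19). Tspan4 (gene 64540, chr7:141475236-141493427), a tetraspanin known from the retraction fibres that migrating cells leave behind, stood at 1336.5, 1394 and 1330.4, and both its intervals included 0 (−0.05 to 0.17 and −0.12 to 0.10). With equal totals Cd82 changed sign in both comparisons (0.10 and 0.05), Tspan3 with Ocn-EV (0.12, against −0.09 with Prx1-EV) and Tspan4 with Prx1-EV (0.32 and 0.22). Tspan4 overlaps the gene Chid1, and no source used here says whether reads were counted by strand. Cd9, Cd81, Cd82 and Cd151 also overlap other annotated genes.

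**Figure D2:**
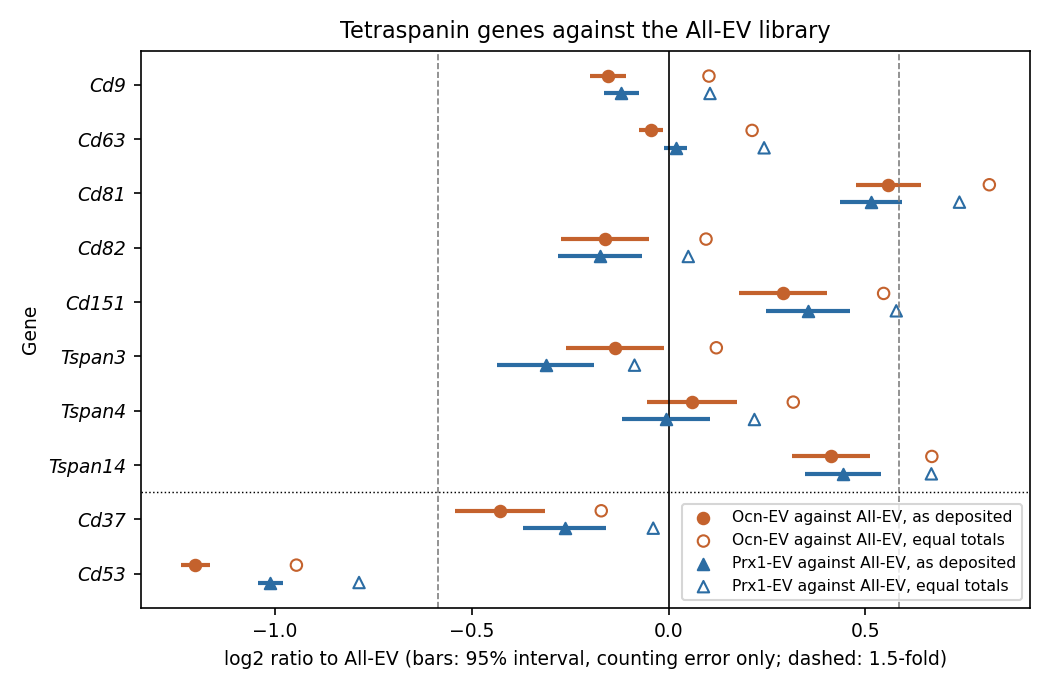
log2 ratio of each tetraspanin gene to the All-EV library for Ocn-EV (circles) and Prx1-EV (triangles), filled as deposited with 95% counting intervals and open with libraries set to equal totals; dashed lines mark 1.5-fold. Cd53 lies at −1.20 and −1.01 and stays beyond the line under both scalings, while Cd81 (0.56 and 0.51) and Tspan14 (0.41 and 0.44) pass it under equal totals alone.

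Cd53 (gene 12508, chr3:106758861-106790149) was the member that differed most. Its level was 21649 for All-EV, 9414 for Ocn-EV and 10744 for Prx1-EV. It was 2.30-fold (2.24 to 2.36) lower with Ocn-EV and 2.01-fold (1.97 to 2.06) lower with Prx1-EV than with All-EV (log2 −1.20 and −1.01). Only 2.48% and 3.61% of all tested genes had a lower ratio. By reads it ranked 73rd for All-EV, 161st for Ocn-EV and 148th for Prx1-EV. Under equal totals the log2 ratios were −0.94 and −0.79, and with the dependence on length and GC content taken out −0.79 and −0.66, each still past 1.5-fold. In RNA of a whole culture, fewer leukocytes and less Cd53 RNA per leukocyte cannot be told apart.

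Cd37 (gene 12493, chr7:45233632-45239340) was lower in the same libraries by much less. Its level was 1589 for All-EV, 1181 for Ocn-EV and 1323 for Prx1-EV. That is 1.34-fold (1.24 to 1.45) and 1.20-fold (1.12 to 1.29) below All-EV, short of 1.5-fold in both. With equal totals its log2 ratios shrank to −0.17 and −0.04, the second no larger than its counting error. There were 13.6 (12.9 to 14.4) Cd53 reads for each Cd37 read for All-EV, 7.97 (7.49 to 8.48) for Ocn-EV and 8.12 (7.70 to 8.57) for Prx1-EV, so the pair did not change in proportion.

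Promoter sequence is shown for both leukocyte genes and for Cd9 and Cd81, 2 vesicle markers whose listed start is the first base of the annotated gene, as it is for Cd53. The starts listed for Cd37 and Cd63 lie inside the gene, and the Cd63 window is not shown. Sequences are from RefSeq (GRCm38.p6), run from 250 bases before to 30 bases after the start, and are written 5′ to 3′ on the gene's strand. Capitals mark matches on either strand to 4 motifs, which do not overlap here: GAGGAA (the core bound by PU.1, a factor of myeloid and B cells), GGGCGG (the GC box), CACGTG (an E-box) and TATAAA (the TATA box).
Cd53, chr3:106790120-106790399, minus strand: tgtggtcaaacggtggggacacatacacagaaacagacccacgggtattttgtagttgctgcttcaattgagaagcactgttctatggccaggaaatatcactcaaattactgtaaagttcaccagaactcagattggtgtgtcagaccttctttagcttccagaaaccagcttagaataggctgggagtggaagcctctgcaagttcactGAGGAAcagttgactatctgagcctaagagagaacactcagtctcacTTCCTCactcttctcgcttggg
Cd37, chr7:45238810-45239089, minus strand: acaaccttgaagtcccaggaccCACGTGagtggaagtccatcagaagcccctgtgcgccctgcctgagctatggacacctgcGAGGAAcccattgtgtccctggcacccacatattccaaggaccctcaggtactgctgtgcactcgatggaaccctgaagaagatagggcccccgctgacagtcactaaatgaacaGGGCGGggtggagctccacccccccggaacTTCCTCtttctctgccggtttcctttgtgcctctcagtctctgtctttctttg
Cd9, chr6:125494731-125495010, minus strand: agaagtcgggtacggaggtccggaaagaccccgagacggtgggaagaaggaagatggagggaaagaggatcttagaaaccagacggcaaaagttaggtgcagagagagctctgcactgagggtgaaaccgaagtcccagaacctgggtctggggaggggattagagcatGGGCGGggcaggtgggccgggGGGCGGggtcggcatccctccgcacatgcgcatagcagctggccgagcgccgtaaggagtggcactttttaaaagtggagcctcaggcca
Cd81, chr7:143052500-143052779, plus strand: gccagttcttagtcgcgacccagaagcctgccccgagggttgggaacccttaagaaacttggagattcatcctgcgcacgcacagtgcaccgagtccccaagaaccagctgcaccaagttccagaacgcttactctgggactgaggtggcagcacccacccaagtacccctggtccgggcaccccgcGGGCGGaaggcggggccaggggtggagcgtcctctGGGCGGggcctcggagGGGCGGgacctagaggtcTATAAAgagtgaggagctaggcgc
The Cd53 and Cd37 windows each hold 2 matches to the PU.1 core, and those of Cd9 and Cd81 hold none. The core is common, present in 28.3% of 32851 promoter windows of the same table, each 300 bases long, and broadly expressed members have it too: the window listed for Cd63 holds 2, 1 window of Cd82 holds 2, and both windows of Tspan14 hold it (1 and 3). In all, 5 of the 10 members have a window with the core, so in the listed windows it does not divide the leukocyte genes from the rest. The members have 16 windows, and some of them start inside the gene. This count per gene therefore cannot be set against the share per window. GC boxes number 2 in the Cd9 window, 3 in Cd81, 1 in Cd37 and 0 in Cd53, against 35.7% of all windows with at least 1. Over 300 bases, CpG pairs number 18 and 23 in Cd9 and Cd81 and 4 and 8 in Cd53 and Cd37, where the median over all windows was 7. The Cd81 window alone of these holds TATAAA (13.6% of all windows) and the Cd37 window alone the E-box (7.15%). The Cd81 TATAAA begins at base 7 after the listed start, not before it. Of the Cd53 cores, 1 begins 39 bases before the start and 1 at base 9 after it. These matches describe letters in a window and were not tied to the levels.

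Comparing leukocyte with broadly expressed tetraspanins inside a library avoids any choice of scaling between libraries. Cd37 and Cd53 together held 39.0% (38.6 to 39.4) of the reads of the 10 genes for All-EV, 22.5% (22.1 to 22.8) for Ocn-EV and 24.4% (24.1 to 24.8) for Prx1-EV. Nearly all of that was Cd53, with 36.3%, 20.0% and 21.7%. Cd9, Cd63 and Cd81 together held 49.5% (49.0 to 49.9), 61.7% (61.2 to 62.1) and 60.6% (60.2 to 61.0). There were 1.18 (1.15 to 1.20) Cd53 reads for each Cd63 read in All-EV and 0.528 (0.515 to 0.542) and 0.577 (0.565 to 0.590) in Ocn-EV and Prx1-EV. Relative to Cd81 the contrast was wider, at 9.67 (9.23 to 10.1), 2.85 (2.74 to 2.97) and 3.36 (3.24 to 3.49) Cd53 reads per Cd81 read. The 10 genes together took a similar part of all reads, 0.339%, 0.320% and 0.328%. Per kilobase of principal transcript the leukocyte share was 32.1% for All-EV, 18.1% for Ocn-EV and 19.7% for Prx1-EV. Without Cd53, the gene with the most reads in All-EV, Cd37 held 4.18% of the reads of the other 9 genes there, so the size of the leukocyte share rests on Cd53.

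**Figure D3:**
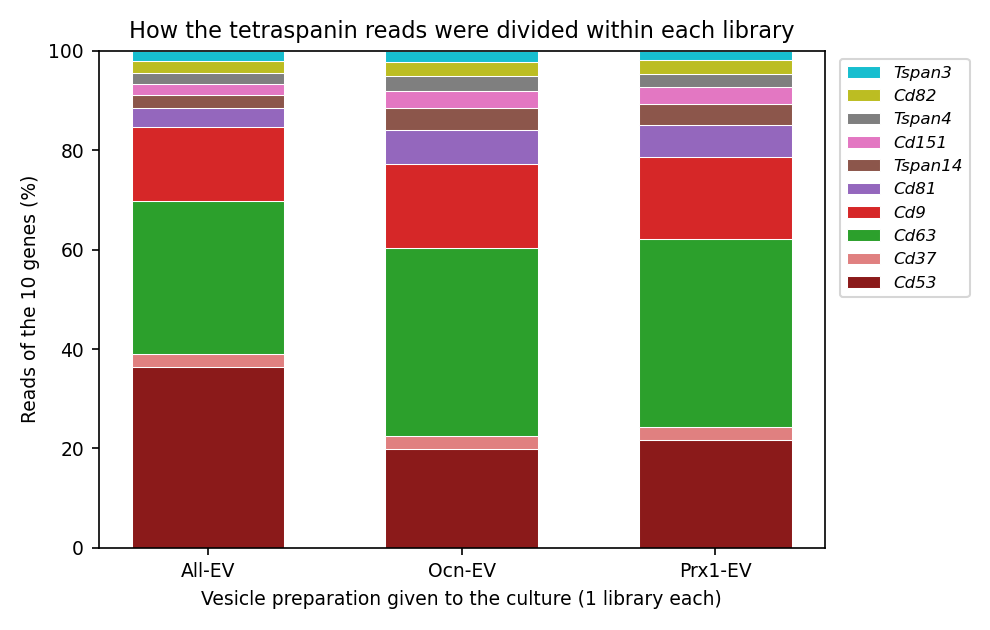
Division of the reads of the 10 tetraspanin genes within each library, as stacked bars that sum to 100%, 1 library per bar. Cd53 and Cd37, at the bottom, take 39.0% for All-EV, 22.5% for Ocn-EV and 24.4% for Prx1-EV, and Cd63 takes 30.8%, 37.8% and 37.6%. A smaller Cd53 part enlarges the other parts of a bar, so these do not show a higher level of Cd63.

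Leukocyte genes did not all differ in the same direction. Ptprc, which encodes the pan-leukocyte antigen CD45, stood at 3632 for All-EV, 4054 for Ocn-EV and 4295 for Prx1-EV, slightly higher where Cd53 was lower (log2 0.16 and 0.24). There were 5.96 (5.74 to 6.19) Cd53 reads for each Ptprc read for All-EV, 2.32 (2.24 to 2.41) for Ocn-EV and 2.50 (2.42 to 2.59) for Prx1-EV. For Cd37 the corresponding numbers were 0.438 (0.411 to 0.466), 0.291 (0.273 to 0.311) and 0.308 (0.291 to 0.326). Relative to Itgam, the CD11b integrin chain of myeloid cells, which was itself 2.67-fold and 3.03-fold lower, Cd53 was not lower: its 19130, 9092 and 12316 reads stood beside 20139, 8242 and 8634 reads of Itgam in the same order of libraries.

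Within the list of 10 macrophage markers, 2 were higher by 1.5-fold or more with Ocn-EV and 3 lower, while Prx1-EV had 1 higher and 4 lower (median log2 −0.12 and −0.09). Adgre1, the F4/80 antigen, was 1.63-fold and 1.75-fold lower, and Lyz2, lysozyme, had log2 ratios of −1.44 and −1.79. Cd68, a lysosomal membrane protein of macrophages, stood at 0.11 and 0.28, and Mrc1, the mannose receptor, at 0.88 and 0.67. Csf1r, the receptor for the macrophage growth factor CSF-1, was higher (0.56 and 0.25), as was C1qa (1.16 and 0.46). Tyrobp (−0.51 and −0.59) and Fcer1g (−0.34 and −0.42) were lower. In each comparison 5 of the 10 markers lay above All-EV and 5 below, so any gene that differs has some of them on its side. Cd53 lay below All-EV with Itgam, Lyz2, Adgre1, Tyrobp and Fcer1g, and Cd81 lay above it with the rest. The part of these markers in the tetraspanin levels was not tested.

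**Figure D4:**
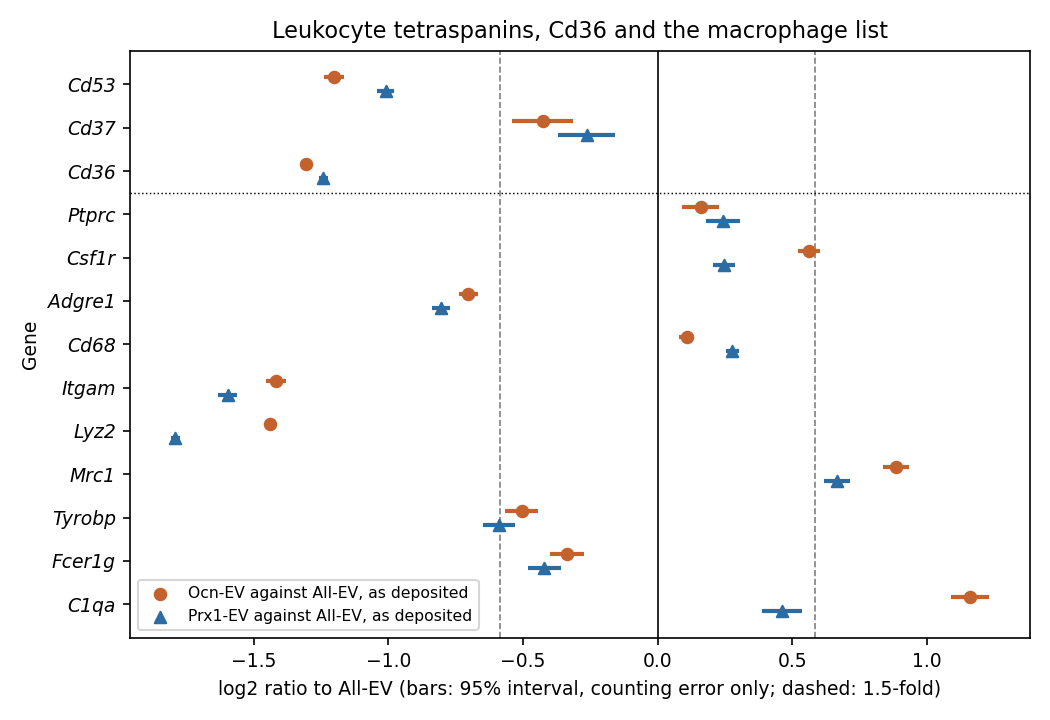
log2 ratio to the All-EV library of Cd53, Cd37, the partner gene Cd36 and the 10 macrophage markers for Ocn-EV (circles) and Prx1-EV (triangles), with 95% counting intervals and dashed lines at 1.5-fold. Cd53 lies on the lower side with Itgam, Lyz2, Adgre1, Tyrobp and Fcer1g, and the other 5 macrophage markers lie above 0, Ptprc and Cd68 slightly.

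Markers of other blood cells were scarce, apart from Pf4. The 6 B cell markers had 9 reads in all for All-EV, 39 for Ocn-EV and 34 for Prx1-EV. Cd37 had 1404, 1141 and 1517 reads. The 6 T and NK cell markers had 2, 2 and 1 reads, with Cd3d and Cd3e at 0 in every library. The 8 neutrophil markers had 51, 15 and 8 reads, with Ly6g, Elane, Ltf and Retnlg at 0. For 0 reads the upper limit is 3 reads, which is 1.93e-05% of the reads in All-EV. Among the 6 markers of megakaryocytes and platelets, a lineage rich in CD9, the gene Gp9 was at 0 reads in all 3 libraries, while Pf4 had 9244, 1755 and 1808 reads and carried most of the summed 9394, 1811 and 1879. Cd9 had 7829, 7691 and 9348 reads, and whether cells of that lineage had a part in its level was not tested. The 5 erythroid markers had 38, 16 and 16 reads, and the 5 endothelial ones 615, 946 and 1145.

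Most stromal markers lay on the other side from Cd53. Of the 10 stromal markers past the filter, those at least 1.5-fold higher numbered 8 with Ocn-EV and 7 with Prx1-EV, and 1 (Nt5e) was lower in each (median log2 1.18 and 0.78). Cd81, Tspan14 and Cd151 were higher in the libraries where stromal markers were higher. Col1a1, a collagen chain gene, stood at 7861 (All-EV), 44981 (Ocn-EV) and 30399.5 (Prx1-EV). Between Ocn-EV and Prx1-EV, where it was 1.48-fold apart, Cd81 differed by a log2 of 0.04 (−0.02 to 0.11). Whether stromal content had a part in the Cd81, Tspan14 and Cd151 levels was not tested.

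Counted over the members, 0 of 10 were at least 1.5-fold higher and 1 of 10, Cd53, was at least 1.5-fold lower with Ocn-EV than with All-EV. Over all 11067 tested genes, 13.8% were higher and 13.6% lower by that amount (27.4% in either direction), so the members' counts were not above the background. With Prx1-EV the counts were again 0 higher and 1 lower, against 12.7% and 12.7% of tested genes (25.3% in either direction). Equal totals added Cd81 and Tspan14 to the higher members in both comparisons, against 24.7% and 22.9% of tested genes, and the trend on length and GC content, once removed, added Cd81, against 12.5% and 11.5% of tested genes. The median log2 ratio of the 8 broadly expressed members was 0.01 in each comparison, and that of all tested genes −0.02 with Ocn-EV and 0.00 with Prx1-EV. Cd37 and Cd53 had a median of −0.81 with Ocn-EV and −0.64 with Prx1-EV, midway between 2 unlike values. Both comparisons use the same All-EV library, so their likeness is not independent support.

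Ocn-EV and Prx1-EV were close to each other for all 10 genes. None was 1.5-fold apart, where 2.24% of tested genes were higher and 1.3% lower with Ocn-EV (3.54% in either direction). The ratios ran from −0.19 for Cd53 to 0.18 for Tspan3 on the log2 scale. Counting intervals excluded 0 for 4 genes. Cd53 (−0.23 to −0.15), Cd37 (−0.28 to −0.05) and Cd63 (−0.09 to −0.03) were lower with Ocn-EV, and Tspan3 was higher (0.05 to 0.30). With equal totals Cd63 was at −0.03.

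Beside these 10, the tetraspanin family list held 21 further genes, and 10 of them passed the filter. At least 1.5-fold above All-EV were 3 of the 10 with Ocn-EV (13.8% of tested genes) and 4 with Prx1-EV (12.7%), and 0 were lower by that amount (median log2 0.34 and 0.10). Tspan32, a tetraspanin of blood cells, stood at 61.1 for All-EV, 116 for Ocn-EV and 126 for Prx1-EV (log2 0.91, 0.44 to 1.42, and 1.03, 0.58 to 1.52), the opposite direction to Cd53 and Cd37. It is the nearest tetraspanin neighbour of Cd81 on chromosome 7, 33263 bases away with no annotated gene lying wholly between, and both were higher in the same libraries. The gene R74862 overlaps Cd81, and whether it reaches into that gap was not looked at. Cd151 and Tspan4 are also neighbours on chromosome 7, 3754 bases apart with 1 gene wholly between, and of these Cd151 was higher and Tspan4 was not.

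Tspan9, known from platelets, stood at 236.5 for All-EV, 419 for Ocn-EV and 451 for Prx1-EV (log2 0.82 and 0.93). Tspan2, which overlaps an antisense gene, stood at 36.2, 54.9 and 65.4, and its log2 interval with Ocn-EV included 0 (−0.06 to 1.28). With Prx1-EV it was 1.81-fold (1.18 to 2.83) higher. Tspan13 passed 1.5-fold with Prx1-EV alone, at 637, 857 and 983 (log2 0.43, 0.27 to 0.59, and 0.63, 0.48 to 0.77). Equal totals, which raise all ratios to All-EV, put it past that fold in both (0.68 and 0.85). Tspan7 stood at 172, 242 and 186, and Tspan31 at 1910.3, 1784 and 1762. The small difference of Tspan31 changed sign with equal totals (0.16 and 0.11), and it overlaps Cdk4, so its reads are less certain.

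Prph2 and Rom1, known as proteins of the photoreceptor disc rim, were both read in these marrow cultures. Prph2 stood at 1808 for All-EV, 1429 for Ocn-EV and 1329.5 for Prx1-EV (log2 −0.34 and −0.44). Per kilobase of transcript its level was 679, 536 and 499, in the range of the lower 6 members. Rom1 stood at 704, 611 and 574 (−0.20 and −0.29). With equal totals their ratios were −0.08 and −0.22, and 0.05 and −0.07. Neither overlaps another gene in the annotation used.

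**Figure D5:**
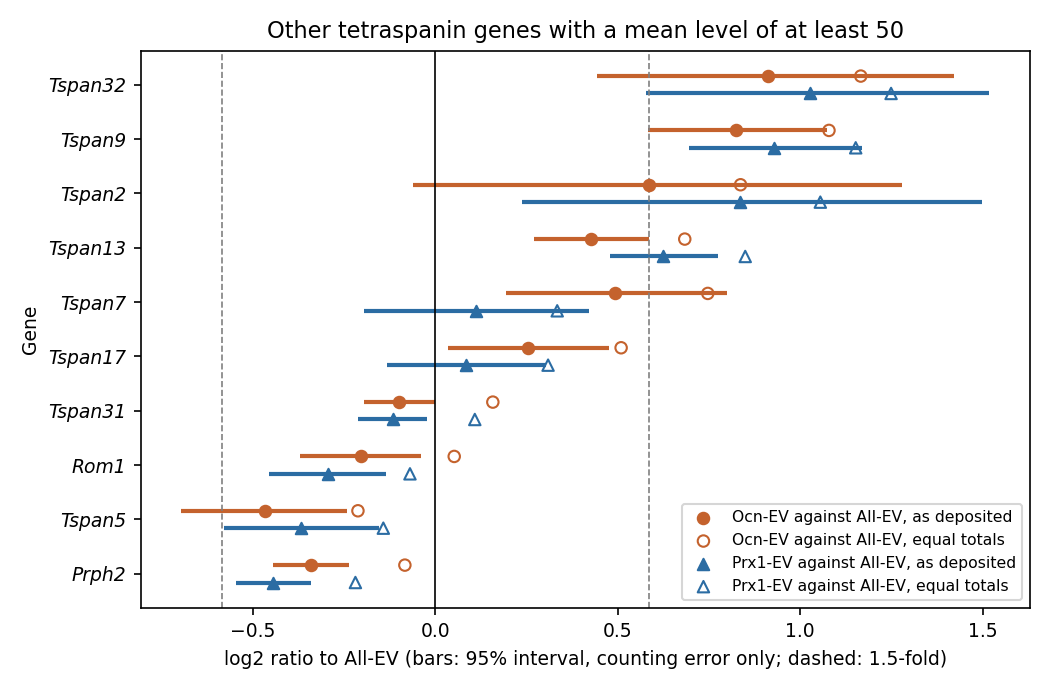
log2 ratio to the All-EV library of the 10 further tetraspanin genes that passed the filter, for Ocn-EV (circles) and Prx1-EV (triangles), filled as deposited with 95% counting intervals and open with libraries set to equal totals; dashed lines mark 1.5-fold. Tspan32 and Tspan9 lie beyond the line on the higher side in both comparisons, and no gene lies beyond it on the lower side.

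The TspanC8 subgroup, which handles ADAM10, was uneven. Per kilobase Tspan14 was its most abundant member, at 629, 837 and 855 against 62.3, 45.0 and 48.3 for Tspan5 and 216, 258 and 230 for Tspan17. As deposited counts, Tspan5 stood at 414 for All-EV, 299 for Ocn-EV and 321 for Prx1-EV (log2 −0.47 and −0.37), and Tspan17 at 343, 409 and 364 (0.25 and 0.09). The 1377 reads of Tspan14 in All-EV stood beside 366 of Tspan5, the 2003 in Ocn-EV beside 289 and the 2428 in Prx1-EV beside 368. Tspan33 lay below the filter, with 11, 39 and 51 reads (3.24-fold and 3.57-fold higher, with log2 intervals of 0.70 to 2.81 and 0.88 to 2.93), as did Tspan10 (13, 2 and 6 reads) and Tspan15 (9, 6 and 21). Adam10 itself stood at 3413, 3443 and 3399 and differed from All-EV by less than counting error in both (0.01 and −0.01).

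The other family members below the filter were Tspan1, Tspan6, Tspan8, Tspan11, Tspan12, Tspan18, Upk1a and Upk1b. Tspan12, a tetraspanin of Norrin and Wnt receptor signalling, had 47 reads for All-EV, 23 for Ocn-EV and 26 for Prx1-EV, and Tspan18 had 5, 32 and 20. Tspan6 had 35, 50 and 50. The rest had 0 to 2 reads in each library. The 10 members held 90.2% of the reads of all 31 listed tetraspanin genes for All-EV, 88.1% for Ocn-EV and 88.7% for Prx1-EV.

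Among 24 genes of tetraspanin partners, 22 passed the filter. With Ocn-EV 2 were at least 1.5-fold higher and 3 lower, and with Prx1-EV 1 was higher and 3 lower, against 13.8%, 13.6%, 12.7% and 12.7% of tested genes. The partners past that fold in both comparisons were Cd36, Ptgfrn and Pi4k2b, lower, and Itga6, higher. Cd36, a scavenger receptor that associates with CD9 in macrophages, stood at 84449.5 for All-EV, 34170.2 for Ocn-EV and 35703 for Prx1-EV, 2.47-fold and 2.37-fold lower. Pi4k2b, a lipid kinase gene, stood at 539.8, 318 and 250.4.

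Ptgfrn and Igsf8, which encode immunoglobulin-family partners of CD9 and CD81, were not higher where Cd81 was. Ptgfrn stood at 1497 for All-EV, 940.2 for Ocn-EV and 875 for Prx1-EV (log2 −0.67 and −0.77), and Igsf8 at 1894, 1563.5 and 1674 (−0.28 and −0.18). In All-EV there were 1979 reads of Cd81 beside 1323 of Ptgfrn and 1674 of Igsf8. Ocn-EV had 3185 beside 908 and 1510, and Prx1-EV had 3666 beside 1003 and 1919, so Cd81 was the higher in reads by a wider margin in both. With equal totals Ptgfrn was at −0.41 and −0.55, within 1.5-fold, and Igsf8 changed sign with Prx1-EV (0.05). Igsf3, another immunoglobulin-family gene of the partner list, named after its values were seen, stood at 159.6, 205 and 155, higher with Ocn-EV (log2 0.36, 0.04 to 0.68) and at −0.04 (−0.37 to 0.29) with Prx1-EV.

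The integrin partners of CD151 lay on the same side as Cd151. Itga6 stood at 1982 for All-EV, 3073 for Ocn-EV and 3127 for Prx1-EV (log2 0.63 and 0.66), and Itgb1, the shared beta chain, at 20042, 21825 and 23571 (0.12 and 0.23). Sdcbp, which encodes syntenin, the adaptor that binds the CD63 tail, stood at 17535, 15198 and 16064 (−0.21 and −0.13), and changed sign with equal totals (0.05 and 0.10). Lamp1, a lysosomal membrane protein named here after its values were seen, was 1.37-fold and 1.35-fold lower. There were 0.707 (0.693 to 0.721) Cd63 reads for each Lamp1 read for All-EV, 0.941 (0.922 to 0.961) for Ocn-EV and 0.963 (0.945 to 0.982) for Prx1-EV.

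Over the 66 other listed genes past the filter, the patterns most like each marker were found by the distance between pairs of log2 ratios to All-EV, over only 3 libraries. Nearest to Cd53 were Cd36 (distance 0.25) and Nt5e, a stromal marker (0.32). Nearest to Cd37 were Ap3b1 (0.08) and Lamp2 (0.10). Cd63 lay nearest to Adam10 (0.06) and Tspan4 (0.11), and Cd9 to Sdcbp (0.05) and Tspan31 (0.06). Cd81 lay nearest to Thy1, also a stromal marker (0.11), and Itga6 (0.16). Thy1 (log2 0.53 and 0.41) and Nt5e (−0.93 and −0.86) both lay below the median of the stromal markers (1.18 and 0.78). With 3 libraries such distances describe these cultures alone.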

How the data were processed

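Messenger RNA of 3 cultures was sequenced as 1 library per group, and groups were taken from the sample labels. Values were deposited as 1 normalised signal for each gene in each library. The submitters' processing notes name HISAT2 2.2.1 and build mm10, featureCounts 2.0.3, Trimmomatic 0.38.1 with FastQC 0.74, and DESeq2 2.11.40.8; order, settings and strand are not given there. In each library 100% of values were whole multiples of the smallest value above 0 (tolerance 1e-06), namely 1.13 (All-EV), 1.04 (Ocn-EV) and 0.872 (Prx1-EV), so whole reads were recovered: 15558165, 14233978 and 17269204 in total. These set the width of all intervals. Reads are not independent molecules.

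Symbols and positions came from RefSeq (GRCm38.p6, the build of mm10) and matched 25275 of 27179 identifiers. Transcript lengths came from GENCODE vM21. Log2 ratios used a pseudocount of 1, and the 11067 genes with a mean of at least 50 entered comparisons. Intervals are exact conditional binomial (Clopper-Pearson). A test on reads, which compares libraries and not conditions and was added after the data were seen, called 7134, 7092 and 2840 genes (exact binomial, Benjamini-Hochberg) for Ocn-EV to All-EV, Prx1-EV to All-EV and Ocn-EV to Prx1-EV, with 8, 8 and 4 of the 10 members among them. Named genes are the members, family genes past the filter (the rest by name), partners at least 1.5-fold from All-EV in both comparisons with 5 fixed ones, markers that touch a result, and the 2 nearest patterns of 5 members. Other genes named were chosen after their values were seen, as were the within-library gene pairs. Members and lists were chosen with earlier results of these data known. Alternatives were other pseudocounts, filters, folds, transcript lengths, equal totals, TMM scaling (edgeR 4.0.16) and removal of a linear trend on length and GC content over 10798 genes. Calculations were tested on simulated data. Python 3.11.15, scipy 1.17.1 and R 4.3.3 were used.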

Additional observations from a re-analysis of the deposited data

How the results depend on the processing

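No paired analysis was possible because each group has 1 library, and leaving out a library would leave a group empty. Pseudocounts of 0.5 and 0 and TMM scaling left each member median between the medians of its genes' lower and upper counting limits. They moved no member count. Cd53 stayed at least 1.5-fold below All-EV under every scaling, pseudocount and trend setting run. It was 2-fold lower in both comparisons as deposited, but with Prx1-EV it was just short of that under TMM scaling (log2 −0.995), and in both it was short of it under equal totals (−0.94 and −0.79) and with the length and GC trend removed (−0.79 and −0.66). Equal totals put the medians of all 10, the 8 broadly expressed and the leukocyte members at 0.17, 0.26 and −0.56 with Ocn-EV and 0.16, 0.23 and −0.41 with Prx1-EV, made 2 members higher in each comparison, and put 24.7% and 22.9% of tested genes higher and 6.65% and 6.51% lower. With the length and GC trend removed, those medians were 0.10, 0.17 and −0.65 with Ocn-EV and 0.0046, 0.16 and −0.48 with Prx1-EV, and 1 member was higher in each, against 12.5% and 11.5% of tested genes. With no filter, 22.3% of genes were higher and 19.4% lower with Ocn-EV, 20.8% higher and 19.5% lower with Prx1-EV, and 14.0% higher and 11.1% lower in Ocn-EV against Prx1-EV (6.19% and 3.75% with a mean of at least 10). At a fold of 2, the shares higher and lower were 6.27% and 4.2% with Ocn-EV, 5.12% and 3.66% with Prx1-EV, and 0.325% and 0.19% in Ocn-EV against Prx1-EV. The share of Cd37 and Cd53, beside Cd9, Cd63 and Cd81 alone, was 44.1% for All-EV, 26.7% for Ocn-EV and 28.7% for Prx1-EV. Per kilobase of the longest transcript it was 41.3%, 24.0% and 26.1%, and of the principal transcript, chosen after the data were seen, 32.1%, 18.1% and 19.7%. Without the gene with the most reads it was 4.18% in All-EV (without Cd53) and 36.1% and 39.1% in the others (without Cd63), so these 3 cannot be compared. The shifts follow from what each setting scales, counts or leaves out. Depth was not the limit for the 10 members, which had at least 1052 reads each, and was for family genes below the filter. The lack of replicates limits every comparison.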
